A study of Mus musculus with 32 samples.

Results

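The set described here holds 10 genes of the YAP and TAZ pathway, namely the coactivator genes Yap1 and Wwtr1, the transcription factor genes Tead1, Tead2, Tead3 and Tead4, and the target genes Ccn1, Ccn2, Amotl2 and Ankrd1. Members were chosen by name, with their values left out of the rule, and all 10 were found among the 50600 genes of the count and TPM tables. They were read in 32 primary mouse melanomas whose polyadenylated RNA was sequenced, 8 tumours for each of 4 groups. All mice carried Tyr::NrasQ61K, an NRAS oncogene that the tyrosinase promoter drives in melanocytes, together with Cdkn2a-/+, a tumour suppressor with a single intact copy, and Cdh1F/F, a floxed gene of the adhesion protein E-cadherin. Ecad males and Ecad females had no Cre (°/° in the labels). ΔEcad males and ΔEcad females were labelled Tyr::NRAS/° at that place, where the methods of the study give Tyr::CreA/°, a Cre driven by the tyrosinase promoter, so that Cdh1 is deleted in the melanocyte lineage and not in the other cells of the tumour. The age of the mice is not given in the sources used here.

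YAP and its paralogue TAZ, which Wwtr1 encodes, are transcriptional coactivators without a DNA-binding domain of their own. The Hippo kinases phosphorylate them, which keeps them in the cytoplasm, and when unphosphorylated they enter the nucleus and bind TEAD factors at promoters and enhancers. E-cadherin junctions are among the upstream inputs of the Hippo pathway, and in melanoma YAP and TAZ are known for roles in invasion and in resistance to therapy. The RNA level of a coactivator does not report its phosphorylation or its place in the cell, for which the level of target RNA is the usual proxy.

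A tumour's total count was between 24036333 and 63923086. A tumour is a mix of cells, and in bulk RNA fewer cells of a type and less RNA per cell cannot be told apart. The targeted gene Cdh1 had a median of 3.29 TPM in ΔEcad against 145 TPM in Ecad males. In females it had 46.7 TPM in ΔEcad against 30.6 TPM in Ecad tumours (range 0.17 to 143 and 2.16 to 151). Cdh1 thus did not separate the female genotypes, and the direction of every female comparison rests on the labels. The receptor gene Grpr, which the study reports as upregulated in ΔEcad females, did separate them. It was at 3.52 to 263 TPM in ΔEcad and at 0 to 0.34 TPM in Ecad females. Libraries stood apart in 4 cases. Xist was at 6.41 TPM and 4 Y-linked genes were at 0 counts in the library labelled ΔEcad male 2. In the library labelled ΔEcad female 1 the Y-linked genes had 92 counts. ΔEcad male 7 had 5 of 10 melanocytic markers under 1 TPM and Dct, another of them, at 4.98 TPM, and ΔEcad female 3 had 9 of 10 endothelial markers under 1 TPM.

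The members lie on 7 chromosomes of the mouse genome (GRCm38). Yap1 (ENSMUSG00000053110) lies at chr9:7931999-8004596 and Amotl2 (ENSMUSG00000032531) at chr9:102716672-102733418. Wwtr1 (ENSMUSG00000027803) lies at chr3:57455649-57575910 and Ccn1 (ENSMUSG00000028195) at chr3:145646976-145649981. Tead1 (ENSMUSG00000055320) lies at chr7:112679318-112906807 and Tead2 (ENSMUSG00000030796) at chr7:45215753-45233644, where it shares exon bases with Cd37 on the opposite strand. Tead3 (ENSMUSG00000002249) lies at chr17:28331671-28350817, Tead4 (ENSMUSG00000030353) at chr6:128224288-128300823, Ccn2 (ENSMUSG00000019997) at chr10:24595442-24598683 and Ankrd1 (ENSMUSG00000024803) at chr19:36111961-36120099. Ccn2 overlaps the antisense gene Gm15270. Counts of Cd37 reached 2850 and those of Gm15270 reached 2243, and no source used here says that strand was used in counting, so the values of Tead2 and Ccn2 are uncertain to that extent.

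TEAD factors bind the short motif GGAATG or its reverse complement CATTCC. RefSeq promoter windows (GRCm38.p6) were at hand for 7 of the 10 members, and the 250 bases before a start site held the motif in 6 of these 7, against 14.4% of 27025 genes. Tead2 was the member whose window held no match. Wwtr1 held it 136 bases before the start, and Tead3 182 bases before 1 of its start sites and 123 and 114 bases before another. The AP-1 motif (TGACTCA or TGAGTCA), found in 4.46% of all windows, was in no member's window. A match is a description of letters, not of binding. The windows follow RefSeq start sites, which can differ from the ends of the gene spans given above. Those of Amotl2 and Ankrd1 lie inside these spans, and some others reach into them. The 4 windows printed here belong to Yap1, Ccn1, Amotl2 and Ankrd1, the members with a window that were highest in the same tumour (ΔEcad female 3), and the capitals mark the TEAD motif. Yap1 held it 141 bases before the start, Ccn1 103 and Amotl2 65, and Ankrd1 held it at 210 and at 123, where 0.99% of all windows held at least 2.
Yap1, chr9:8004597-8004846, minus strand: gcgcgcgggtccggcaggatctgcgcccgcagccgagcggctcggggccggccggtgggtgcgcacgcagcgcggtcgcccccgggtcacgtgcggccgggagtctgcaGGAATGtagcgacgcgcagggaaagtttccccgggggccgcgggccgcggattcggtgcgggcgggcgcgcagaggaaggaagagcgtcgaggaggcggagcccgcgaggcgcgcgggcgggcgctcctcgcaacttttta
Ccn1, chr3:145649986-145650235, minus strand: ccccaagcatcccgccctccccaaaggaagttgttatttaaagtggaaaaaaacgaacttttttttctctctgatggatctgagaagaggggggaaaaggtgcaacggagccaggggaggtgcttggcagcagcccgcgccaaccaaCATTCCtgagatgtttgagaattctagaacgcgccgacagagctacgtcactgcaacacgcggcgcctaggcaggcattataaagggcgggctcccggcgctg
Amotl2, chr9:102717554-102717803, plus strand: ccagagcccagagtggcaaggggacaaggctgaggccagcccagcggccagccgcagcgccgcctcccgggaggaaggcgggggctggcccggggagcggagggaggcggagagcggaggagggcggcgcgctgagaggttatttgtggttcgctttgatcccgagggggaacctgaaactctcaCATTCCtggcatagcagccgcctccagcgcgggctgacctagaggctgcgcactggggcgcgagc
Ankrd1, chr19:36119845-36120094, minus strand: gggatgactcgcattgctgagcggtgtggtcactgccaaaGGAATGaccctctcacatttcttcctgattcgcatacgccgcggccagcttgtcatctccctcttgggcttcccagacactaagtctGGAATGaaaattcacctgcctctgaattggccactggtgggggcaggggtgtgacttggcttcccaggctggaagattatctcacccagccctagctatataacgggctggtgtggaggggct

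The coactivators came at steady levels for Yap1 and varied ones for Wwtr1. Yap1 was at 29.5, 39.0 and 45.9 TPM (lowest, median and highest) in Ecad males and at 33.2, 38.5 and 49.5 TPM in Ecad females. It was at 18.0, 36.7 and 53.3 TPM in ΔEcad males and at 36.6, 42.4 and 66.4 TPM in ΔEcad females. The groups overlapped, with ΔEcad male 1 the lowest and ΔEcad female 3 the highest of all 32 tumours. The SD of the log2 CPM of Yap1 within groups was 0.297, and 0.807% of the 17717 genes tested had a lower one, or 2.10% of the 1000 genes closest to it in level. Wwtr1 was at 26.0, 53.8 and 114 TPM in Ecad males and 25.4, 85.8 and 199 TPM in Ecad females. In ΔEcad males it was at 25.2, 63.3 and 148 TPM and in ΔEcad females at 25.1, 56.6 and 132 TPM. The 4 groups thus shared nearly the same floor and overlapped over most of their ranges. The SD of Wwtr1 within groups (0.853) was close to the median of all genes tested (0.863). Of the 1000 genes closest to Wwtr1 in level, however, 84.6% had a lower one. In TPM, which allows for gene length, Wwtr1 exceeded Yap1 in 24 of 32 tumours, in all 8 ΔEcad males and in 4 of 8 ΔEcad females, and the ratio ran from 0.618 to 5.78 with a median of 1.66.

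**Figure D1:**
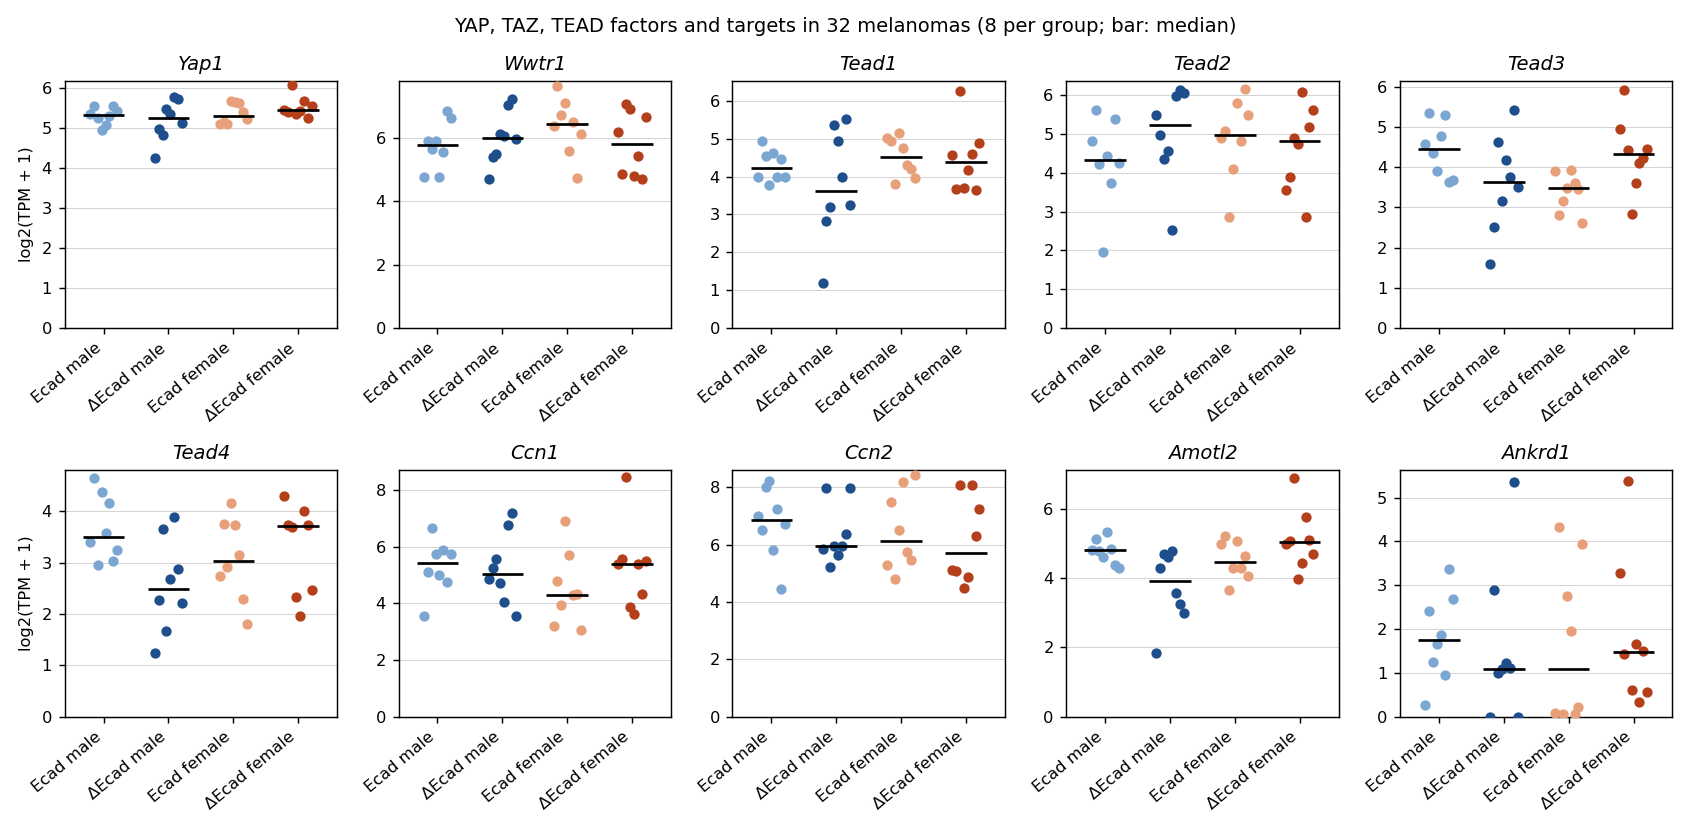
Level of each of the 10 genes as log2(TPM + 1) (axes from 0, 1 scale per gene) in each of the 32 tumours, by group, with 1 point per tumour and a bar at the group median. Yap1 keeps within 18.0 to 66.4 TPM in all 32 tumours, while Ankrd1 runs from 0 to 40.3 TPM, and for every gene the ranges of the groups overlap.

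The TEAD genes encode the DNA-binding partners of YAP and TAZ, and tumours differed in which of them was highest. Tead2 made up 39.1% ± 21.7 of the summed TPM of the 4 genes, Tead1 26.9% ± 13.02, Tead3 21.6% ± 12.5 and Tead4 12.4% ± 8.1 (SD, n = 32). Tead2 was the highest in 18 tumours, Tead1 in 8, Tead3 in 5 and Tead4 in 1. The share of Tead2 ran from 5.76% to 90.4%, so no member of the family was the main one throughout. Summed over the 4 genes, the males had 78.8 ± 28.5 TPM (Ecad) and 80.0 ± 38.6 TPM (ΔEcad) and the females 76.5 ± 23.0 TPM (Ecad) and 87.8 ± 27.6 TPM (ΔEcad; SD, n = 8 each), with group means closer to each other than the tumours of any group were.

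**Figure D2:**
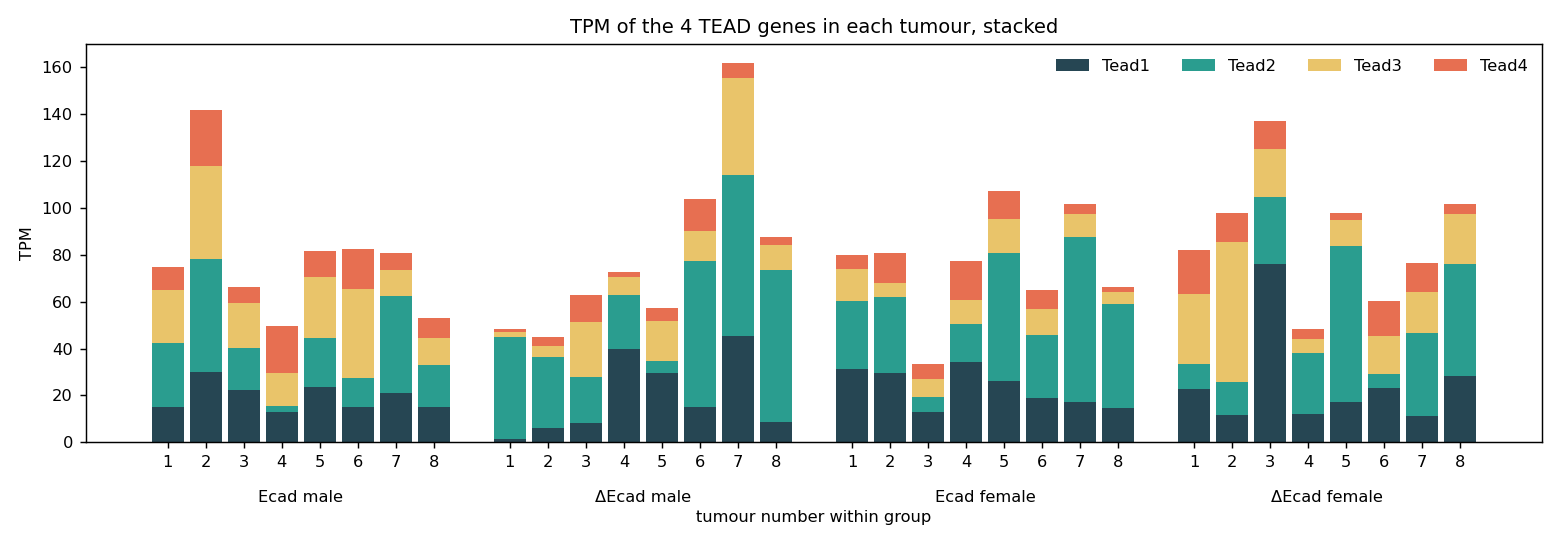
TPM of Tead1, Tead2, Tead3 and Tead4 stacked for each of the 32 tumours in the order of the groups. The part taken by Tead2 is the greatest in 18 tumours, and Tead3 makes up a smaller part of the bars in Ecad females (13.7% on average) than in Ecad males (28.9%).

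Tead1 was at 12.8, 18.1 and 29.9 TPM in Ecad males and 12.9, 22.3 and 34.2 TPM in Ecad females. The ΔEcad males had 1.28, 11.7 and 45.2 TPM and the ΔEcad females 11.4, 19.9 and 76.1 TPM. Both ends of the range were thus ΔEcad tumours, the low one ΔEcad male 1 and the high one ΔEcad female 3. Tead2 was at 2.85, 19.3 and 48.5 TPM in Ecad males and 6.21, 30.7 and 70.2 TPM in Ecad females. The ΔEcad males had 4.76, 36.9 and 68.9 TPM and the ΔEcad females 6.21, 27.3 and 66.6 TPM. Its groups overlapped, and each spanned over 10-fold from the lowest to the highest tumour. Tead3 was at 11.4, 21.1 and 39.6 TPM in Ecad males and 5.11, 10.1 and 14.1 TPM in Ecad females. The ΔEcad males had 2.02, 11.4 and 41.6 TPM and the ΔEcad females 6.18, 19.2 and 59.9 TPM. Ecad females formed the narrow low group, with 6 of 8 below every Ecad male, and 6 of 8 ΔEcad females lay above every Ecad female. Tead4 was at 6.78, 10.3 and 23.9 TPM in Ecad males and 2.49, 7.18 and 16.8 TPM in Ecad females. The ΔEcad males had 1.35, 4.63 and 13.8 TPM and the ΔEcad females 2.90, 12.1 and 18.6 TPM, with all groups overlapping.

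Among the targets Ccn1, Ccn2 and Ankrd1 spread more widely within groups than Yap1 or Wwtr1 (SD of 1.25, 1.33 and 2.76 in log2 CPM), while Amotl2 (0.669) lay between these coactivators. Ccn1, a secreted matrix-associated protein once called Cyr61, was at 10.7, 42.6 and 98.8 TPM in Ecad males and 7.22, 18.7 and 119 TPM in Ecad females. It was at 10.6, 32.3 and 143 TPM in ΔEcad males and at 11.4, 40.9 and 346 TPM in ΔEcad females, where the top value was again ΔEcad female 3 and the groups overlapped. Ccn2, the related protein once called Ctgf, was at 20.7, 116 and 299 TPM in Ecad males and 26.7, 72.0 and 342 TPM in Ecad females. It was at 36.6, 61.3 and 253 TPM in ΔEcad males and at 21.3, 55.6 and 273 TPM in ΔEcad females. Each group held tumours with under 40 and over 250 TPM of Ccn2, and Ccn2 exceeded Ccn1 in 24 of 32 tumours, by up to 47.3-fold.

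Amotl2, an angiomotin family protein that binds YAP and is itself a target, was at 18.4, 26.9 and 39.2 TPM in Ecad males and 11.5, 21.3 and 36.2 TPM in Ecad females. It was at 2.57, 14.7 and 26.8 TPM in ΔEcad males and, in the ΔEcad females, at 14.7, 31.8 and 117 TPM. No ΔEcad male reached the Ecad male median and 4 of 8 lay below every Ecad male, while all 8 ΔEcad females lay above the ΔEcad male median and 5 lay above every ΔEcad male. Ankrd1, an ankyrin repeat protein of muscle and a common YAP readout, was at 0.21, 2.40 and 9.36 TPM in Ecad males and 0.04, 1.53 and 19.1 TPM in Ecad females. In ΔEcad males it ran from 0 counts in ΔEcad males 1 and 8, through a median of 1.13, to 40.2 TPM in ΔEcad male 7. A count of 0 allows up to 3 counts. In ΔEcad females it was at 0.25, 1.76 and 40.3 TPM, again highest in ΔEcad female 3. Ankrd1 was under 10 TPM in most tumours of every group, and its SD within groups (2.76 in log2 CPM) exceeded that of the other members. By median TPM over all tumours the order was Ccn2 (79.6), Wwtr1 (63.3), Yap1 (40.3), Ccn1 (31.96), Tead2 (28.01), Amotl2 (24.4), Tead1 (18.0), Tead3 (14.0), Tead4 (8.14) and Ankrd1 (1.53). Neighbours in that order crossed often. Ccn2 exceeded Wwtr1 in 19 of 32 tumours, Ccn1 exceeded Tead2 in 17 and Tead2 exceeded Amotl2 in 16, while Tead3 exceeded Tead4 in 28. ΔEcad female 3 was the highest of all tumours for 5 members (Yap1, Tead1, Ccn1, Amotl2 and Ankrd1), and ΔEcad male 1 was the lowest for 5 (Yap1, Tead1, Tead3, Tead4 and Amotl2). For all 10 members the ranges overlapped in all 4 pairs of groups compared (40 of 40). The share of all genes with such overlap is not given here, so this count describes the values and says nothing particular about the members.

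ΔEcad and Ecad tumours of females, the sex on which the study centres, were compared across all genes with edgeR (quasi-likelihood test, Benjamini-Hochberg adjustment over 17717 genes). No member was called at an adjusted p under 0.05 with an absolute log2 fold change over 1, where 1.2% of all genes were. Tead3 was higher in ΔEcad females by 1.14 on the log2 scale (SE 0.38, 95% interval 0.36 to 1.92, edgeR adjusted p 0.105), and Amotl2 by 0.75 (SE 0.32, 95% interval 0.10 to 1.40, edgeR adjusted p 0.224). These 2 of 10 members had an unadjusted p under 0.05, a rule that 15.3% of all genes met, so that the count alone says nothing particular about the members. Without ΔEcad female 2 the fold change of Tead3 was 0.76, and without ΔEcad female 3 that of Amotl2 was 0.39. Yap1 gave 0.10 (95% interval -0.26 to 0.45), the narrowest interval among the members. Wwtr1 gave -0.53 (95% interval -1.35 to 0.29), Tead1 0.06 (-0.70 to 0.81), Tead2 -0.27 (-1.37 to 0.84), Tead4 0.27 (-0.60 to 1.13) and Ccn2 -0.37 (-1.68 to 0.93). Ccn1 gave 0.99 (-0.28 to 2.27) and Ankrd1 0.28 (-2.22 to 2.77), and both turned on 1 tumour, being -0.086 and -1.22 without ΔEcad female 3. Over the 10 members the median log2 fold change was 0.18, beside -0.02 over all genes tested.

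With DESeq2 in place of edgeR, Tead3 was called in females (log2 fold change 1.21, DESeq2 adjusted p 0.0354), among the 7.23% of genes that DESeq2 called. Markers of other cells moved with this comparison. Of 10 keratinocyte markers, 9 were higher in ΔEcad females at an unadjusted edgeR p under 0.05 and 0 were called, with a median log2 fold change of 5.36. The markers summed to between 5.3 and 1918 TPM in the Ecad and between 10.7 and 34417 TPM in the ΔEcad tumours. Over all tumours Krt5 was at 0 counts in 7, Krt14 in 6 and Dsg3 in 10. Of 10 fibroblast markers 5 were higher by the same rule, with a median of 1.40, and a sum between 112 and 4257 TPM in the Ecad and between 413 and 9386 TPM in the ΔEcad tumours. Of 8 mural cell markers 4 were called higher, with a median of 1.92. With the keratinocyte and melanocytic scores as covariates, Tead3 gave 0.47 (edgeR adjusted p 0.753) and Amotl2 gave 0.74, and the part of the other cell types in these differences was not tested.

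In males, the same comparison called no member (0.0% of all genes). Tead2 was at 39.7 ± 24.0 TPM in ΔEcad against 23.6 ± 15.0 TPM in Ecad males, Tead4 at 6.00 ± 4.44 against 12.9 ± 6.42 TPM and Amotl2 at 15.3 ± 9.23 against 27.0 ± 6.94 TPM (SD, n = 8 each). The log2 fold changes were 1.21 (SE 0.55) for Tead2, -0.88 (SE 0.43) for Tead4 and -0.68 (SE 0.32) for Amotl2, with edgeR adjusted p of 0.470, 0.484 and 0.476. These 3 of 10 members had an unadjusted p under 0.05, beside 10.2% of all genes. Tead3 gave -0.48 (95% interval -1.26 to 0.29), so the estimates of Tead3 and Amotl2 lay on opposite sides of 0 in the sexes. Yap1 gave 0.16 (95% interval -0.19 to 0.52) and Wwtr1 0.44 (-0.38 to 1.26). Ankrd1 gave 0.89 (-1.63 to 3.40), and -0.78 without ΔEcad male 7. The median over the members was 0.09, beside 0.11 over all genes tested. Without both ΔEcad male 2 and ΔEcad male 7, no member was called either.

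The sexes were compared within each genotype, and these comparisons share their groups with those above. In Ecad tumours no member was called (0.0508% of all genes), and Tead3 had a fold change in females of -1.11 on the log2 scale (SE 0.38) and an edgeR adjusted p of 0.147, the 1 member with an unadjusted p under 0.05 beside 16.0% of all genes. Of the keratinocyte markers 9 of 10 were lower in Ecad females by that rule, with a median of -4.85. In ΔEcad tumours no member was called (0.0395% of all genes), and Amotl2 was higher in females by 1.27 (SE 0.32, 95% interval 0.61 to 1.92). Its unadjusted edgeR p of 0.000416 was at rank 16 of 17717 and became 0.460 on adjustment, and Amotl2 was the 1 member with an unadjusted p under 0.05 beside 8.81% of all genes. DESeq2 called Amotl2 in this comparison (1.31, DESeq2 adjusted p 0.0492), among 0.135% of all genes. Without ΔEcad female 3 the edgeR fold change was 0.91, the lowest with 1 tumour left out. The highest was 1.40, without ΔEcad male 2, the library with 0 Y-linked counts, and neither fit called Amotl2. Here 0 of 10 keratinocyte markers and 4 of 8 mural markers were higher in ΔEcad females at an unadjusted p under 0.05.

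The interaction asks whether the genotype difference was unlike between the sexes, as the log2 fold change in females minus that in males. No member was called (0.0% of all genes). Amotl2 gave 1.43 (SE 0.45, 95% interval 0.51 to 2.34, edgeR adjusted p 0.0798) and Tead3 gave 1.62 (SE 0.54, 95% interval 0.52 to 2.72, edgeR adjusted p 0.0978), and these 2 of 10 had an unadjusted p under 0.05, beside 17.7% of all genes. DESeq2 called both, at 1.51 (DESeq2 adjusted p 0.0247) for Amotl2 and 1.73 (0.0343) for Tead3, among 6.91% of all genes. Amotl2 rested on few tumours either way. With edgeR it was called without ΔEcad male 3 (1.53, adjusted p 0.0485) or without ΔEcad female 4 (1.54, adjusted p 0.0486), and with DESeq2 its call was lost without ΔEcad female 3 (1.14, adjusted p 0.0627). By the interaction 10 of 10 keratinocyte, 5 of 8 mural and 6 of 10 skeletal muscle markers were higher at an unadjusted p under 0.05. With the keratinocyte and melanocytic scores as covariates Tead3 gave 1.02 and Amotl2 1.33.

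**Figure D3:**
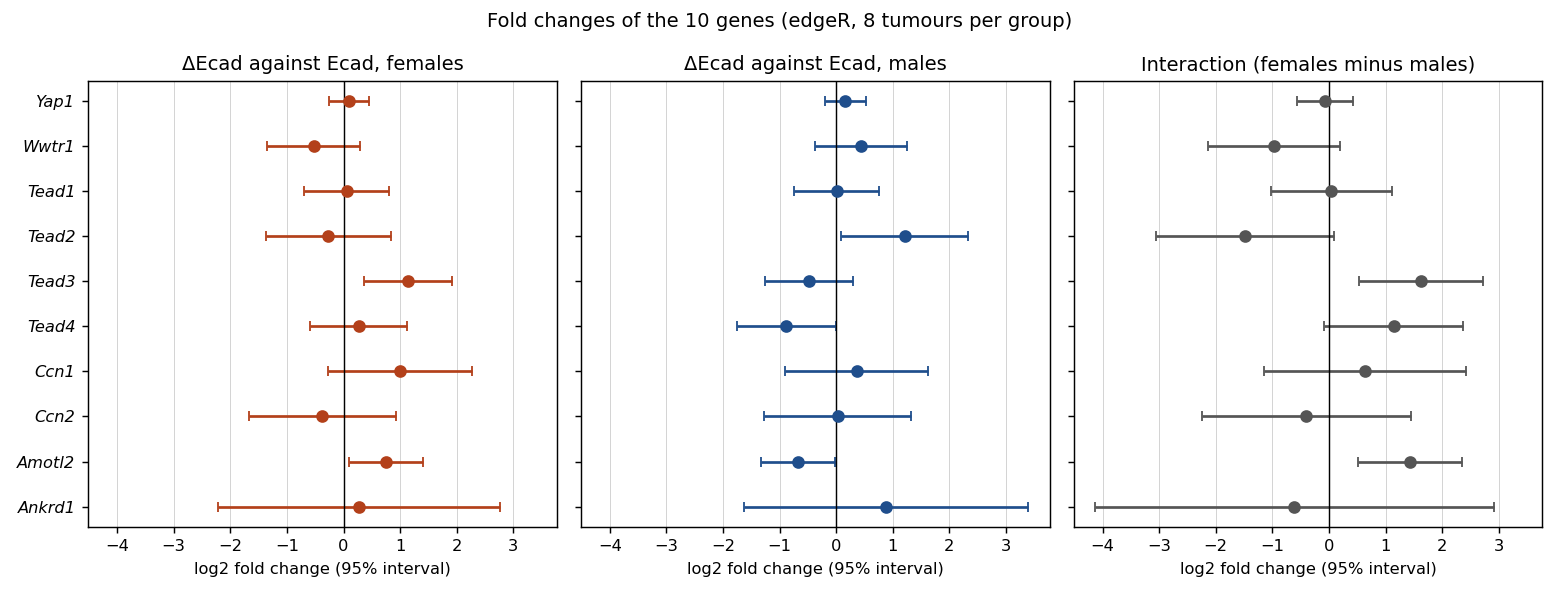
Log2 fold change of each member for ΔEcad against Ecad in females, in males and for their interaction (edgeR, 8 tumours per group), with points at the estimate and lines for the 95% interval. Most intervals cross 0, that of Yap1 is the narrowest, and Tead3 and Amotl2 lie above 0 in females and in the interaction without being called by edgeR.

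To see with which cells the members' RNA went, 6 scores of marker genes (mean log2 CPM of keratinocyte, fibroblast, endothelial, mural, skeletal muscle and melanocytic lists) were each fitted with edgeR across the tumours, groups kept as terms, and called at an adjusted p under 0.05. Wwtr1 was lower where the keratinocyte score was higher, by a slope of -0.51 log2 units per SD of the score (SE 0.14, edgeR adjusted p 0.0162), 1 of 10 members beside 10.5% of all genes. The scores fell in 2 ranges, 14 tumours under 3 and 18 over 3, and the slope of Wwtr1 was -1.13 among those over 3 (edgeR adjusted p 0.121) and -0.31 among those under 3, neither of which was called. Among the tumours over 3, Tead3 was called (1.51, edgeR adjusted p 0.0334). With all 6 scores in 1 model Wwtr1 was at -0.53 (edgeR adjusted p 0.0512) and Ankrd1 was called (-1.83, adjusted p 0.0037). With the keratinocyte score alone Ankrd1 was at -1.15 (edgeR adjusted p 0.128), Tead2 at -0.42, Ccn1 at -0.41, Tead1 at -0.39 (adjusted p 0.0872) and Yap1 at -0.16 (adjusted p 0.154), while Tead3 was at 0.30 and Tead4 at 0.36, and none of these was called.

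Tead3 and Tead4 were called on the fibroblast score, 2 of 10 members beside 4.84% of all genes. They were higher by 0.53 (SE 0.15, edgeR adjusted p 0.0340) and 0.61 (SE 0.17, adjusted p 0.0371) per SD of the score. Without ΔEcad male 7, the tumour with few melanocytic markers, Tead3 was at 0.46 (adjusted p 0.126), and with all 6 scores in 1 model at 0.25 (adjusted p 0.501). In that model Tead4 was still called (0.86, edgeR adjusted p 0.0133) and Ccn1 was called as well (1.17, adjusted p 0.0063), as it was with voom. Without Ecad females 1 and 8, farthest from the median of the score, Tead4 was at 0.56 (edgeR adjusted p 0.0802). No member was called on the endothelial (3.57% of all genes), mural (0.0508%), skeletal muscle (3.31%) or melanocytic score (3.43%). The smallest adjusted p among these were those of Tead1 (-0.36, edgeR adjusted p 0.0527) and Ccn1 (-0.49, adjusted p 0.0680) on the endothelial score, in fits that include ΔEcad female 3 with a score of -2.57, and of Tead3 on the melanocytic score (-0.38, adjusted p 0.0662), in a fit that includes ΔEcad male 7.

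**Figure D4:**
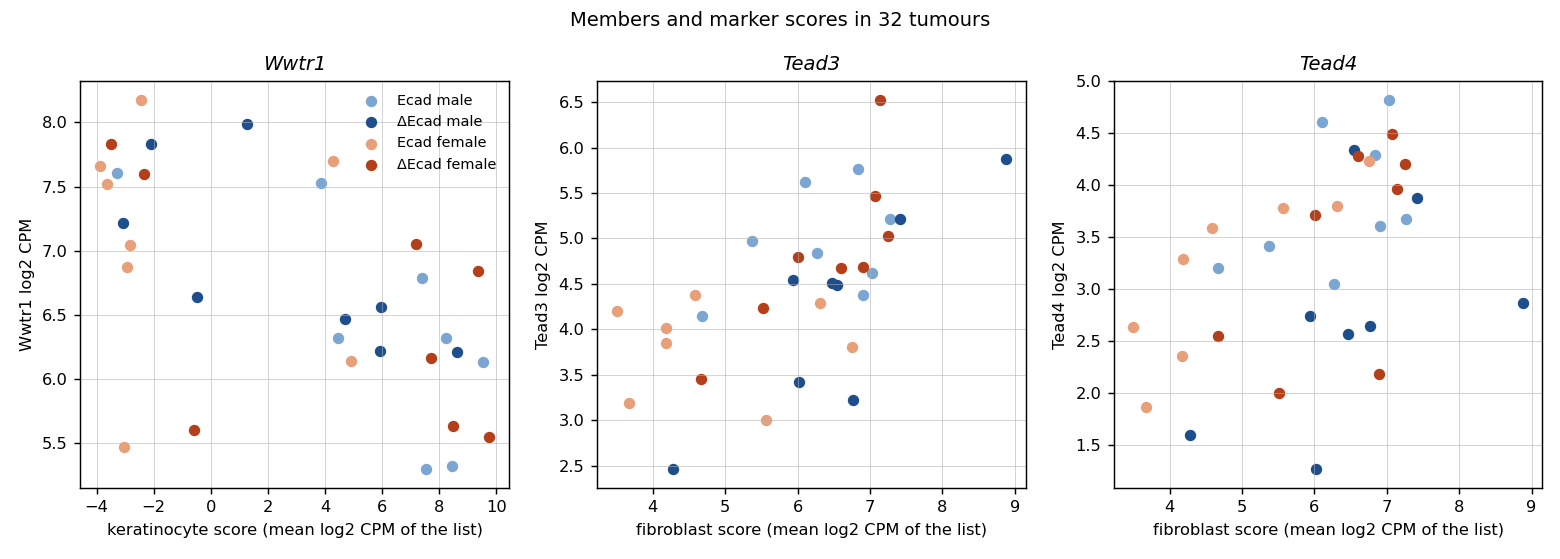
Log2 CPM of Wwtr1 against the keratinocyte score and of Tead3 and Tead4 against the fibroblast score (both scores as mean log2 CPM of their lists) in the 32 tumours, coloured by group. Wwtr1 is lower at a higher keratinocyte score, whose values lie in 2 ranges with a gap of 2.58 between them, and Tead3 and Tead4 are higher at a higher fibroblast score.

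Whether members went together from tumour to tumour was read from the 45 pairs of members after group means were removed (log2 CPM, n = 32). Pearson's r was positive in 34 pairs and ran from -0.34 to 0.52 with a median of 0.17. By two-sided permutation 6 pairs had an unadjusted p under 0.05 (9 by Spearman's rho) and 0 had one after adjustment over the 45. The highest was that of Tead3 with Tead4 (r 0.52, rho 0.51, permutation p 0.0066, adjusted 0.217), and r was 0.47 without the 2 tumours farthest from the median. Tead4 with Ccn1 gave 0.48, Ccn1 with Ankrd1 0.44, and Yap1 with Wwtr1 0.40. Some of these turned on few tumours, since Tead1 with Ankrd1 went from 0.47 to 0.23 and Tead1 with Amotl2 from 0.45 to -0.12 without the 2 farthest. Tead2 went against Tead4 at -0.34, the lowest of the 45. Counts of pairs depended on the scale, as 6 pairs passed the adjustment in log2(TPM + 1).

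**Figure D5:**
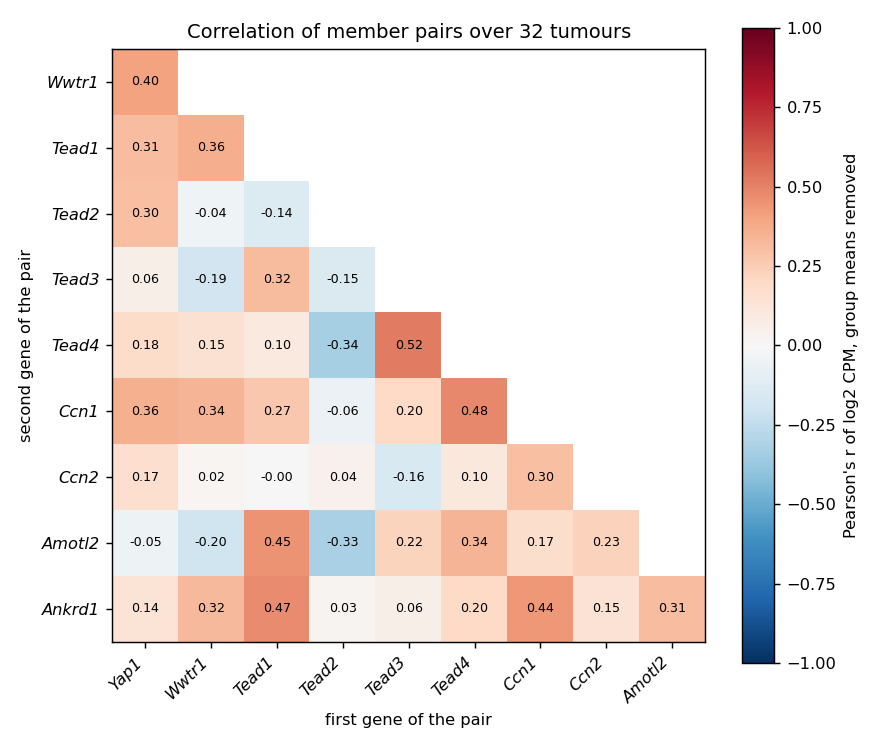
Pearson's r of the log2 CPM of each pair of members over 32 tumours after removal of group means. Of the 45 pairs 34 are above 0, the highest is Tead3 with Tead4 at 0.52 and the lowest is at -0.34.

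Among the 17717 genes tested, the one most like each member by Spearman's rho over the 32 tumours, given here as a description, was Gm26518 for Yap1 (0.814), Rnf2 for Wwtr1 (0.845), Pign for Tead1 (0.877), Ctxn1 for Tead2 (0.754) and Ajuba for Tead3 (0.787). For the remaining ones it was Tmem45a for Tead4 (0.797), Steap1 for Ccn1 (0.882), Gm12844 for Ccn2 (0.656), Plscr2 for Amotl2 (0.687) and Ccn3 for Ankrd1 (0.824). The next in line were Fbxw8 (0.813) and Tmem9 (0.783) for Yap1, Fermt2 (0.845) and Ankrd50 (0.821) for Wwtr1, and Anxa2 (0.827) and Tnn (0.789) for Ccn1. No member was among the 3 genes most like another member. Ajuba and Ccn3 are the genes in these lists that belong to the pathway lists below. The rho was taken on log2 CPM after group means were removed, but the cell makeup of the tumours was not taken out.

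Grpr, the receptor of gastrin-releasing peptide that the study follows in females, ran from 3.52 to 263 TPM over the 8 ΔEcad females. Wwtr1 went with it at r 0.88 (exact permutation p 0.0080, adjusted over 10 members 0.0804) and rho 0.86 (p 0.0107, adjusted 0.107), and without the 2 tumours farthest from the median r was 0.81 (exact permutation p 0.0528). Tead1 gave r 0.62 (exact permutation p 0.0801) and Yap1 0.13 (exact permutation p 0.747). None of the 10 members passed the adjustment.

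Other genes of the pathway were read by the same edgeR calls, in 4 lists. Of 22 Hippo kinases and upstream regulators all were tested and 0 were called in any comparison. In females Ajuba, a LIM protein that restrains the LATS kinases, had a mean of 36.5 ± 21.6 TPM in the ΔEcad tumours and 15.5 ± 6.31 TPM in the Ecad tumours (SD, n = 8 each). Its fold change of 1.18 on the log2 scale had an SE of 0.33 and an edgeR adjusted p of 0.0572, and its interaction was 1.65 (adjusted p 0.0611). Ajuba was thus close to the threshold in both, and by the rho above it was also the gene most like Tead3. DESeq2 called Ajuba in both, where it called 7.23% and 6.91% of all genes, and again without ΔEcad female 3. Some edgeR fits with 1 tumour left out called Ajuba as well. Lats1, the kinase that phosphorylates YAP, gave -0.53 in females (edgeR adjusted p 0.280). In males Dchs1, a protocadherin, gave 1.68 (adjusted p 0.439) and Mob1b, a LATS coactivator, 0.98 (adjusted p 0.446). The median of Dchs1 was 3.075 TPM in ΔEcad and 2.73 TPM in Ecad males, with a highest ΔEcad value of 55.66 TPM. For Mob1b the medians were 7.05 and 7.52 TPM, thus lower in ΔEcad males, whose highest value was 61.08 TPM. In the interaction Mob1b gave -1.69 (edgeR adjusted p 0.109). In females 2 of 22 had an unadjusted p under 0.05, 1 in each direction, beside 15.3% of all genes, and the median of the list was -0.18.

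Vestigial-like proteins bind TEAD factors in place of YAP and TAZ. Of 4 such genes 3 were tested and 0 called, and Vgll3 averaged 12.4 ± 21.2 TPM in the ΔEcad against 1.48 ± 1.55 TPM in the Ecad tumours of females (SD, n = 8 each). The medians were 4.685 and 0.655 TPM, and the highest ΔEcad female was at 63.95 TPM. On the log2 scale Vgll3 differed by 2.90 (SE 0.78, edgeR adjusted p 0.0521) and its interaction was 3.63 (adjusted p 0.0650). DESeq2 called Vgll3 in both, where it called 7.23% and 6.91% of all genes, but in neither without ΔEcad female 3. In females edgeR called Vgll3 with other size factors (beside 322 of 17717 genes) and without a filter (beside 555 of 33460 genes). Some edgeR fits with 1 tumour left out called Vgll3 as well. Vgll2 gave -3.13 in males (edgeR adjusted p 0.476). The further CCN genes, secreted proteins of the family of Ccn1 and Ccn2, had 3 of 4 tested and 0 called. Ccn5 gave 3.07 in females (edgeR adjusted p 0.0832) and 2.83 in the interaction. Its median was 11.65 TPM in ΔEcad and 2.425 TPM in Ecad females, with a highest ΔEcad value of 507.91 TPM. Ccn4 gave 1.62 in females (edgeR adjusted p 0.521), and Ccn3 gave 1.85 in males (adjusted p 0.454) and -1.93 in the interaction. The median of Ccn4 was 3.67 TPM in ΔEcad and 1.595 TPM in Ecad females, with a highest ΔEcad value of 115.02 TPM. That of Ccn3 was 9.495 TPM in ΔEcad and 6.365 TPM in Ecad males, with a highest ΔEcad value of 178.61 TPM.

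Of 18 further YAP and TAZ targets 17 were tested, and 1 was called in females and 0 in the other comparisons. Ccdc80, a secreted matrix protein, was at 2.24, 24.9 and 122 TPM in ΔEcad females, against 1.62, 3.46 and 12.9 TPM in Ecad females, so that the groups overlapped at the low end. It rose by 2.51 on the log2 scale (SE 0.64), with an edgeR adjusted p of 0.0477. The call stood close to the threshold and was kept in 19 of 43 alternatives, 14 of the 32 that leave out a tumour among them, and without ΔEcad female 3 the fold change was 1.92 and not called. In that list 3 genes were higher and 1 lower in females at an unadjusted p under 0.05, beside 15.3% of all genes. The 1 call stood beside 1.2% of all genes, and the median of the list was 0.09. DESeq2 called 2 genes of the list higher in females, Ccdc80 among them, where it called 7.23% of all genes.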

How the data were processed

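Polyadenylated RNA of 32 primary melanomas was read by the authors with a stranded paired-end protocol. They mapped reads to mm10 (GRCm38, GENCODE M13) with STAR, after FastQC 0.11.5, and deposited raw counts per gene. The TPM table was deposited by the authors as well, scaled for gene length and library total. Batch correction (Combat) was applied "when applicable", and whether it touched these tumours is not stated. For 50376 of the 50600 gene identifiers a symbol was found in GENCODE M21 (GRCm38). Groups were taken from the labels.

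Counts were tested with edgeR 4.0.16 (R 4.3.3, TMM factors, filterByExpr, robust quasi-likelihood, two-sided, 1 coefficient per group, all 32 tumours), which kept 17717 genes with a common dispersion of 0.624. All 10 members passed the filter. Calls needed a Benjamini-Hochberg adjusted p under 0.05 over all genes and an absolute log2 fold change over 1. Marker scores (mean log2 CPM, prior count 1) were added to that model 1 at a time, without a limit on the slope. Pairs of members were tested by 100000 permutations within groups (Python 3.11.15, scipy 1.17.1), and Grpr by all 40320 orders of 8 tumours. The scripts were tested on simulated data. Alternatives were DESeq2 1.42.0, limma 3.58.1 (voom, or log2(TPM + 1)), other factors and filters, the groups compared alone, the tumour number as a block, scores as covariates, and each tumour left out.

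Total counts ran from 24036333 to 63923086 per tumour. A floor of 3 counts covers counting error only. Nothing says how tumours relate to mice, so p-values measure the spread between tumours. Members, gene lists and tests were chosen with earlier results of these data known. Named were the members, Cdh1, Grpr and Dct, the 3 genes most like each member, and, of each pathway list, the genes called in any comparison or else the 2 with the smallest p in each genotype comparison and the interaction.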

Additional observations from a re-analysis of the deposited data

Results flagged for a closer look

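Of 40 groups of 8 values (10 members in 4 groups of tumours), 2 held a tumour set apart from the other 7 by Dixon's gap criterion at 95%, where chance gives about 1 in 20. Both were in ΔEcad female 3. Tead1 was at a log2 CPM of 8.31 there, against 5.801 to 6.808 in the other ΔEcad females. Ccn1 was at 7.75 there, against 3.135 to 5.024 in the others. In that tumour the endothelial score was -2.57 and Cdh1 was at 0.17 TPM. The summed fibroblast markers reached 9386 TPM there, the highest of the 32 tumours. Its fibroblast score was 6.01, however, beside a mean of 6.02 over all tumours. Whether these bear on Tead1 or Ccn1 was not tested.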

How the results depend on the processing

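In each of the 5 comparisons 0 members were called by edgeR, and this count held under limma, other size factors and filters, covariates and the fit of the compared tumours alone. DESeq2 called 1 member in females (Tead3), 1 between the sexes in ΔEcad (Amotl2) and 2 in the interaction (Tead3 and Amotl2), and without ΔEcad female 3, a setting chosen after seeing the data, 1 in females and 1 in the interaction (Tead3 in both). With each tumour left out in turn the interaction count ran from 0 to 1, being 1 without ΔEcad male 3 or ΔEcad female 4.

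Small fold changes turned with the setting. In females Tead1 gave -0.34 with DESeq2 without ΔEcad female 3, -0.31 with voom, -0.078 in log2(TPM + 1), -0.036 with the replicate block and -0.36 to 0.16 with 1 tumour left out, Tead2 gave 0.15 and Tead4 -0.18 with covariates, Ccn1 -0.056 with DESeq2 without ΔEcad female 3 and -0.086 to 1.56 with 1 tumour left out, Ccn2 -0.76 to 0.088, and Ankrd1 -1.18 with DESeq2 without ΔEcad female 3 and -1.22 to 0.85 with 1 tumour left out. In males Yap1 gave -0.12 in log2(TPM + 1), and Ankrd1 -0.74 with voom, -0.23 in log2(TPM + 1), -0.45 with covariates, -2.14 without ΔEcad males 2 and 7 and -0.78 to 1.33 with 1 tumour left out. The cause was not tested. Over all 5 comparisons 113 of 2150 alternative values changed sign and 0 of these were called. In log2(TPM + 1) the median of all genes shifted by -0.27 in males and by 0.34 in the interaction.

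On the keratinocyte score voom called 7 members, where it called 5915 of 17717 genes, and the replicate block called 0 (1441 of 17717 genes). Among the tumours with a score under 3, 0 members were called (0 of 19716 genes). Among those over 3, 1 was called (Tead3, beside 1578 of 19477 genes), in a split chosen after seeing the data. On the fibroblast score the count was 1 with the replicate block (Tead4, beside 398 of 17717 genes). It was also 1 without the 2 tumours farthest from the median (Tead3, beside 751 of 18174 genes). Without ΔEcad male 7, a setting chosen after seeing the data, it was 1 as well (Tead4, beside 432 of 17894 genes). All 6 scores in 1 model called 1 member on the keratinocyte score (Ankrd1 in place of Wwtr1), beside 1486 of 17717 genes. On the fibroblast score that model called 2 (Tead4 and Ccn1), beside 612 genes. It called 2 on the endothelial score (Ccn1 and Amotl2), beside 550 genes, and 1 on skeletal muscle (Ankrd1), beside 273 genes. On skeletal muscle voom also called 1, beside 3686 genes. Of the pairs, 6 passed in log2(TPM + 1). With the scores regressed out 1 passed, Ccn1 with Amotl2, at r -0.57 (permutation adjusted p 0.0391), where r was 0.17 before. With the tumour number as a replicate block 0 members were called in the 5 comparisons. Same-numbered tumours correlated at -0.547 to 0.425 and 4 of 32 correlated best with their own number. These correlations also carry differences in cell makeup, so they cannot decide whether same-numbered tumours share more than a number. Depth did not limit members other than Ankrd1, which had 0 counts in 2 tumours.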
